A study of Mus musculus with 6 samples.

Results

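The genes described here encode band 3, the anion exchanger of the red cell membrane, and the membrane proteins that carry the glycophorin C, Rh, Kell, Landsteiner-Wiener, Scianna and Kidd blood groups: Slc4a1, Gypc, Rhag, Rhd, Kel, Xk, Icam4, Ermap and Slc14a1. They were taken by gene symbol from a whole-transcriptome array and gave 12 probes for 9 genes, of 55681 probes and 22227 named genes in all. Of these 9 genes, 8 passed the filter on dim probes, which asked for a signal well above background on every array of one group or the other, and were tested among 14435 genes. Slc14a1 did not pass. RNA came from G1E-ER-GATA-1 cells, a single mouse line of red cell progenitors without a working Gata1 gene, in which a GATA-1 and estrogen receptor fusion protein becomes active when β-estradiol is added. In both groups the cells were nucleofected at 0 h and again at 24 h, were given β-estradiol from 24 h, and were harvested at 48 h, after 24 h of GATA-1 activity. The control group (3 arrays) received non-targeting siRNA, and the SetD8 group (3 arrays) received siRNA against Setd8 (current symbol Kmt5a), which encodes the enzyme that places a single methyl group on lysine 20 of histone H4. The comparison asks whether these transcripts differ when Setd8 is depleted during maturation. Whether the 3 arrays of a group are separate cultures is not stated in the labels, so p-values cover the spread among these arrays alone, and that spread may be technical. The labels give neither the siRNA sequence nor whether it was a single sequence or a pool.

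Band 3 exchanges chloride for bicarbonate and ties the lipid bilayer to the spectrin skeleton through ankyrin and protein 4.2, while glycophorin C makes a further anchor through protein 4.1 and the scaffold protein p55. The Rh-associated glycoprotein RhAG and the Rh protein form one complex that joins band 3 in the membrane, and the Kell protein, an endopeptidase, is bound by a disulfide bridge to the multispanning protein XK. Many of these genes are switched on late in red cell formation and are known targets of GATA-1, which binds GATA motifs in DNA.

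Promoter sequence was at hand for 6 of the 9 genes, as RefSeq windows of 250 bases that end just before the start site (assembly GRCm38.p6). The letters AGATAA or TGATAA, or the same with a final G (AGATAG and TGATAG), on either strand, stood in 5 of the 6 windows (Rhag, Rhd, Kel, Icam4 and Ermap), against 26.5% of 32851 mouse windows of the same length. The window of Xk held none. Of the KLF-type motif CCNCNCCC, Icam4 held 2 matches and Xk held 13, and the motif stood in 45.9% of all windows. Most of those in Xk overlapped in a run of G. The others were GGGGGCGG, 163 to 156 bases before the start, and the overlapping CCCCACCC (10 to 3) and CCACCCCC (8 to 1). A match is a description of the letters and was not tested as a binding site. The windows of Rhag, the gene whose signal stood higher after SetD8 siRNA, of its partner Rhd, and of Kel, which held 2 matches, are printed below 5′ to 3′ in the direction of the gene. Capitals mark the GATA matches, and the windows lie at chr17:40810899-40811148 (Rhag, plus strand), chr4:134864286-134864535 (Rhd, plus strand) and chr6:41704326-41704575 (Kel, minus strand).
Rhag: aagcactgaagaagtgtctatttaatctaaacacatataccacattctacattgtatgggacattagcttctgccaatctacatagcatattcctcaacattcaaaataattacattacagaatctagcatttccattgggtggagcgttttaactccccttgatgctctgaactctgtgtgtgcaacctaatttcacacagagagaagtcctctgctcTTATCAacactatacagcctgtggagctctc
Rhd: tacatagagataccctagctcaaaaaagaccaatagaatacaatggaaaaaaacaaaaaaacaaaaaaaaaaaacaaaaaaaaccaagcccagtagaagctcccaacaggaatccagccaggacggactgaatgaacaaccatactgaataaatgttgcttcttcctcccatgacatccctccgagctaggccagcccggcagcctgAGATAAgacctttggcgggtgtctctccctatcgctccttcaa
Kel: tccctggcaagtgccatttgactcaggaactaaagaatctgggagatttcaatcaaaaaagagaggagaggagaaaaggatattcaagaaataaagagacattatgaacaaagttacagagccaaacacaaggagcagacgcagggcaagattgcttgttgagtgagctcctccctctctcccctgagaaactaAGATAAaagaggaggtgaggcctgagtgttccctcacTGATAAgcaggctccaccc
In Rhag the match ran from 31 to 26 bases before the start site, in Rhd from 43 to 38, and in Kel from 56 to 51 and again from 19 to 14. The single match of Ermap lay 67 to 62 bases and that of Icam4 43 to 38 bases before the start.

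The arrays were of uneven quality. Of 59305 non-control spots on each array, the share well above background ran from 40.2% to 82.5% on the control arrays and from 60.3% to 68.6% on the SetD8 arrays, with control 2 lowest and control 3 highest. Control 1, SetD8 1 and SetD8 2 shared a slide, control 3 and SetD8 3 shared another, and control 2 was alone on its slide and was scanned on another day. Values are therefore given on a pair of log2 scales: the deposited processed signal minus the 75th percentile of its array, which was the setting fixed for the test, and the mean signal after normexp background correction and quantile normalization between arrays. On the first scale limma called 0 of 14435 genes (adjusted p under 0.05), although 444 had an unadjusted p under 0.05. On the second it called 211 genes higher and 34 lower, with 2274 at an unadjusted p under 0.05. Setd8 itself was lower on every SetD8 array at both of its probes. Its brighter probe differed by -2.07 ± 0.15 on the second scale (SE, n = 3 and 3; limma adjusted p = 0.0085) and by -2.24 ± 0.51 on the first (limma adjusted p = 0.685).

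None of the 8 tested genes was called on either scale by limma, where 0% of all genes were called at the 75th percentile and 1.46% higher and 0.236% lower after normexp and quantile normalization. Band 3 stood out in size: its mean was 2.66-fold lower in the SetD8 group at the 75th percentile and 2.28-fold lower after normexp and quantile normalization, and Rhag was 2.07-fold and 1.65-fold higher. The control and SetD8 arrays did not overlap for these 2 of 8 genes at the 75th percentile, where 7.55% of all genes did not overlap in either direction (5.44% higher and 2.11% lower). After normexp and quantile normalization 4 of 8 did not overlap (Slc4a1 and Gypc lower, Rhag and Ermap higher), against 23.6% of all genes (13.7% higher and 9.93% lower). At an unadjusted p under 0.05 there were 2 of the 8 on the first scale, where 3.08% of all genes passed, and 3 of the 8 on the second, where 15.8% passed. The median difference of the 8 genes was -0.084 on the first scale and 0.081 on the second, beside 0.045 and 0.034 over all genes. RNA was taken from whole cultures, so fewer cells of a kind and less RNA per cell cannot be told apart.

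**Figure D1:**
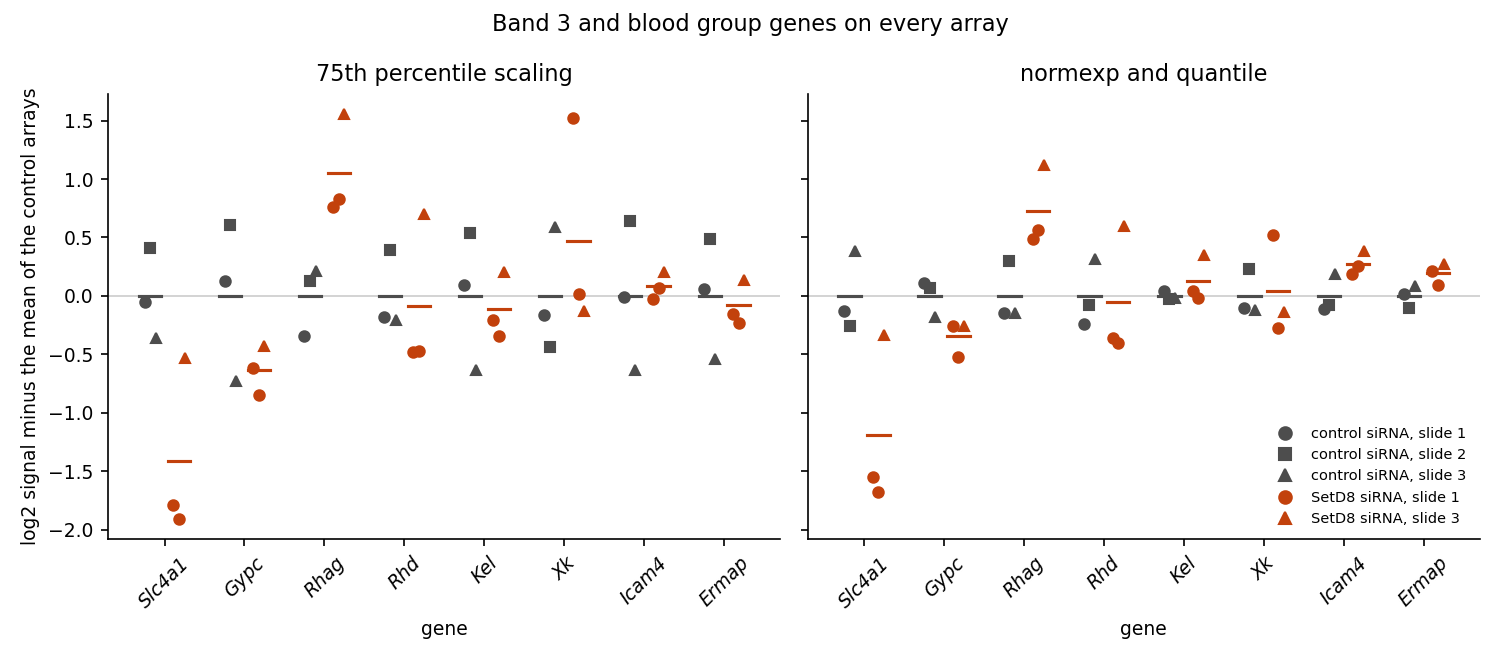
Log2 signal of the 8 tested genes on each of the 6 arrays, minus the mean of the 3 control arrays, at the 75th percentile (left) and after normexp and quantile normalization (right). Points are arrays, with shape for the slide, and short lines are group means. Slc4a1 lies lower and Rhag higher on every SetD8 array on both scales. SetD8 3 lies highest of the SetD8 arrays for every gene but Xk, level with SetD8 1 for Gypc on the right.

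Slc4a1, which encodes band 3, read 5.23, 5.69 and 4.91 on control arrays 1, 2 and 3 and 3.49, 3.37 and 4.75 on SetD8 arrays 1, 2 and 3 at the 75th percentile. Every SetD8 array lay below every control array, but SetD8 3 was only 0.17 below control 3, its partner on the slide. The difference was -1.41 ± 0.48 (SE, n = 3 and 3; 95% interval -2.54 to -0.28), with a limma adjusted p = 0.951. The exact permutation test of this gene gave a two-sided p = 0.1, the smallest that 3 against 3 arrays allow. Of the 14435 genes, 13 had a larger decrease.

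On the second scale Slc4a1 read 12.46, 12.33 and 12.97 in controls and 11.04, 10.91 and 12.25 in SetD8 arrays. The groups again did not overlap, and the difference was -1.19 ± 0.38 (SE; 95% interval -2.11 to -0.27), with a limma adjusted p = 0.194. Only 7 genes had a larger decrease on this scale, while 1383 had a smaller p, so the decrease of Slc4a1 was large beside the other genes and so was its spread between arrays. Between arrays of the same slide the difference was -1.48 on the slide of control 1 and -0.72 on that of control 3. With the slide as a block it was -1.16, with a limma adjusted p = 0.126. Slc4a1 stayed lower in all 30 alternative settings, and its adjusted p ran from 0.0571 to 1.00 over them. Much of that count was fixed in advance. Leaving out an array could not change the sign, as the groups did not overlap. Slc4a1 also has a single probe, so several settings repeat the same difference. Its probe lies at chr11:102210256-102210315 on the minus strand (mm9, per the file headers), and the part of the gene model it falls in was not assigned here.

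SetD8 3 differed from the other SetD8 arrays for this gene. It read 1.28 above the mean of SetD8 1 and 2 after normexp and quantile normalization, and 39 of 14435 genes rose more between those arrays. Control 3, which shares that slide, read 0.52 above control 1 on this scale, whereas the median gene moved by -0.055 between those controls and by -0.0053 between the SetD8 arrays. On the first scale SetD8 3 was 1.32 above SetD8 1 and 2, but control 3 minus control 1 was -0.31, beside -0.54 for the median gene, so the order of the controls turned with the scale. For Rhd, SetD8 3 was 0.98 above SetD8 1 and 2 on the second scale and 1.18 on the first, and control 3 minus control 1 was 0.56 and -0.026. SetD8 3 was the highest SetD8 array for 7 of the 8 genes on both scales, all but Xk. For Gypc on the second scale it was level with SetD8 1 (14.61 on each). The share of all genes with SetD8 3 highest was not computed, so the count is not shown to be particular to these genes. What sets the arrays of that slide apart for these genes was not tested. Without SetD8 3, the difference of Slc4a1 was -1.85 at the 75th percentile and -1.61 after normexp and quantile normalization. These were the largest decreases when 1 array was left out. The smallest were -1.16 and -0.94, both without SetD8 2.

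Within an array any scaling factor cancels when 2 genes are set against each other, so the log2 ratio of Slc4a1 to each other gene was also followed. This measure was added after the values had been seen. The ratio of Slc4a1 to Rhd was 3.80, 3.69 and 3.52 on the control arrays and 2.36, 2.23 and 2.44 on the SetD8 arrays, a difference of -1.32. The groups were far apart beside their spread (SD 0.15 in controls and 0.10 in SetD8 arrays), and SetD8 3 did not stand out. Of the 7 ratios this one had the smallest SD in each group. SetD8 3 did stand above SetD8 1 and 2 against Kel (-0.33 beside -1.19 and -1.17; SD 0.49). The same was seen against Icam4 (-0.70 beside -1.73 and -1.94; SD 0.66) and Ermap (-1.44 beside -2.41 and -2.45; SD 0.57). Against Kel the ratio differed by -1.30, against Icam4 by -1.49, against Ermap by -1.33 and against Rhag by -2.46, in each case without overlap. The ratio of Slc4a1 to 56.3% of 14421 other genes was likewise lower without overlap, so the 5 of 7 counted here are near that background, and all 7 ratios share the same Slc4a1 values. Against Gypc (-0.78) and Xk (-1.88) the arrays of the 2 groups overlapped. A ratio shows that the pair changed unequally and not which gene of the pair changed.

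**Figure D2:**
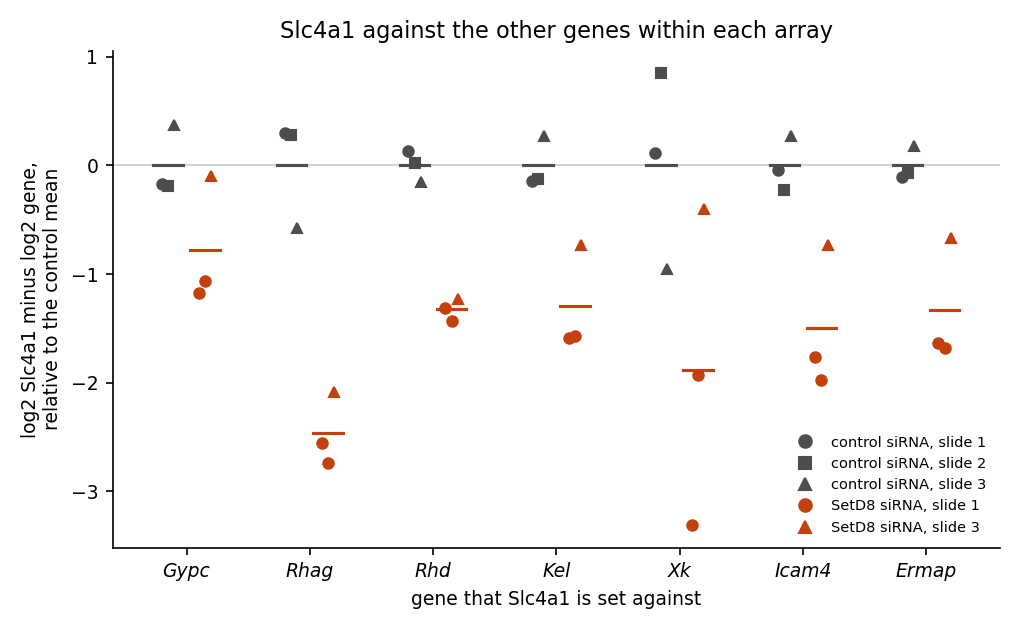
Log2 ratio of Slc4a1 to each of 7 other genes on each array, from the processed signal, minus the mean ratio of the 3 control arrays. Points are arrays, with shape for the slide, and lines are group means. The SetD8 arrays lie below all control arrays against Rhag, Rhd, Kel, Icam4 and Ermap, and overlap with them against Gypc and Xk, where all 7 ratios share Slc4a1 and 56.3% of all genes give a ratio lower without overlap.

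Gypc, which encodes glycophorin C, the carrier of the Gerbich antigens, was lower by less and on 1 scale only without overlap. At the 75th percentile it read 7.54, 8.02 and 6.68 in controls and 6.79, 6.57 and 6.98 in SetD8 arrays, and control 3 lay within the SetD8 range. The difference was -0.63 ± 0.44 (SE; limma adjusted p = 0.951), and it was -0.33 without control 2 and -0.997 without control 3. After normexp and quantile normalization the values were 14.97, 14.93 and 14.68 against 14.61, 14.34 and 14.61, and the groups were separated by 0.072, the gap between control 3 and SetD8 3 on their shared slide. The difference there was -0.34 ± 0.14 (SE; 95% interval -0.68 to -0.0077; limma adjusted p = 0.305), with 1151 of 14435 genes lower still.

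In the Rh complex, Rhag was higher on every SetD8 array and Rhd was not. Rhag, which encodes the Rh-associated glycoprotein needed to bring the Rh protein to the membrane, read -1.28, -0.80 and -0.72 in controls and -0.17, -0.11 and 0.62 in SetD8 arrays at the 75th percentile. Every SetD8 array was above every control array, and the difference was 1.05 ± 0.39 (SE; 95% interval 0.13 to 1.97; limma adjusted p = 0.951), with the exact permutation p again at 0.1. The probe was dim: its processed intensity ran from 69.0 to 257 over the 6 arrays, each of them well above background. On the second scale Rhag read 7.22, 7.66 and 7.22 against 7.85, 7.93 and 8.49. That difference was 0.73 ± 0.22 (SE; limma adjusted p = 0.168), with 462 of 14435 genes higher, and the offset added in this correction makes differences of dim genes smaller. Rhag stayed higher in all 30 alternative settings, with adjusted p from 0.0958 to 1.00, and within slides it differed by 0.68 and 1.27. Leaving out an array could not change that sign, as the groups did not overlap. Rhag also has a single probe, so several settings repeat the same difference. Its probe lies at chr17:40976929-40976988 on the plus strand (mm9).

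Rhd, which encodes the single Rh protein of mice, read 8.92, 9.07 and 9.47 in controls and 8.80, 8.75 and 9.75 in SetD8 arrays after normexp and quantile normalization. SetD8 1 and 2 lay below all controls and SetD8 3 above all of them. The difference was -0.056 ± 0.30 (SE; 95% interval -0.78 to 0.67; limma adjusted p = 0.957), an interval wide enough to hold a change of either sign. At the 75th percentile it was -0.086 ± 0.45.

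For the Kell complex the data gave no difference beyond the spread between arrays. Kel read 12.39, 12.32 and 12.33 in controls and 12.39, 12.32 and 12.69 in SetD8 arrays after normexp and quantile normalization, so SetD8 3 alone stood above the others. The difference was 0.12 ± 0.13 (SE; 95% interval -0.20 to 0.44; limma adjusted p = 0.745), and at the 75th percentile it was -0.11 ± 0.43. Xk, which encodes the multispanning partner of Kell, read 6.81, 7.14 and 6.79 against 7.44, 6.64 and 6.77, and here SetD8 1 stood above the other arrays. The difference was 0.038 ± 0.23 (SE; 95% interval -0.52 to 0.60; limma adjusted p = 0.962). It was larger and less certain on the first scale, 0.47 ± 0.55 (95% interval -0.81 to 1.75; limma adjusted p = 0.951). Its intensity was low, 28.8 to 157 over the arrays, and a further Xk probe was well above background on only 4 of 6 arrays and was not tested.

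Icam4 and Ermap, which encode proteins of the immunoglobulin superfamily, differed little. Icam4, which carries the Landsteiner-Wiener antigen and binds integrins, read 12.40, 12.44 and 12.70 in controls and 12.70, 12.76 and 12.90 in SetD8 arrays after normexp and quantile normalization. Control 3 and SetD8 1 met at the border between the groups. The difference was 0.28 ± 0.13 (SE; 95% interval -0.038 to 0.59; limma adjusted p = 0.384), and at the 75th percentile it was 0.083 ± 0.42.

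Ermap, the carrier of the Scianna antigen, read 13.50, 13.38 and 13.56 against 13.69, 13.57 and 13.75 at its brightest probe. The SetD8 arrays lay above the controls by a narrow gap, with a difference of 0.19 ± 0.11 (SE; 95% interval -0.080 to 0.47; limma adjusted p = 0.504). The other Ermap probes did not share this separation, with differences of -0.098 and 0.022, and at the 75th percentile the sign at the brightest probe was the opposite, -0.082 ± 0.40. Slc14a1, which encodes the urea transporter of the Kidd group, was not well above background on any of the 6 arrays, with processed intensities from 2.76 to 9.13, and no fold was computed.

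**Figure D3:**
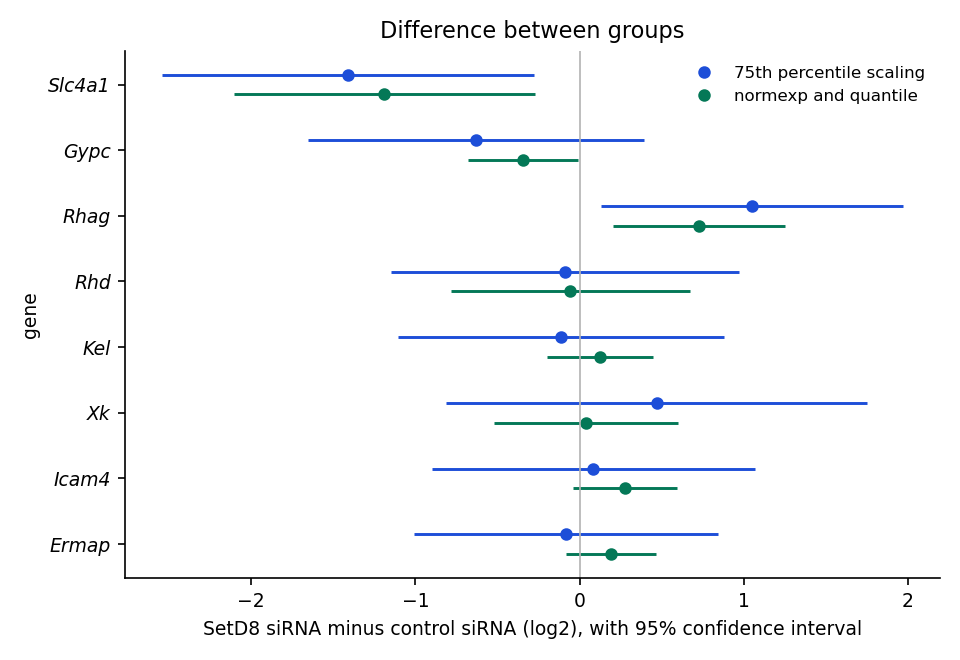
Difference between the group means, SetD8 siRNA minus control siRNA, in log2 units for each of the 8 tested genes, with the 95% confidence interval from limma, on both scales. The intervals of Slc4a1 and Rhag lie to one side of 0 on both scales and that of Gypc after normexp and quantile normalization, before adjustment over all 14435 genes.

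The spread within groups was itself uneven. At the 75th percentile the SD of the controls exceeded that of the SetD8 arrays for 4 of the 8 genes, against 90.8% of all genes. After normexp and quantile normalization it did so for 3 of 8 against 62.7%. In Slc4a1 the SD was 0.34 in controls and 0.74 in SetD8 arrays on the second scale, and in Rhd it was 0.29 and 0.57, with SetD8 3 as the high array in both.

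A list of 35 other genes held blood group antigen carriers, enzymes that make the antigens, partners of these proteins, and non-erythroid Rhbg and Rhcg. Of them 28 were tested. After normexp and quantile normalization 2 of the 28 rose and none fell, against 1.46% and 0.236% of all genes. At the 75th percentile 0 of 28 were called by limma, and 2 had an unadjusted p under 0.05, against 3.08% of all genes. The list's median difference was 0.084 on the second scale and -0.0058 on the first. Art4, the ADP-ribosyltransferase family member that carries the Dombrock antigens, read 11.42, 11.39 and 11.15 in controls and 13.13, 12.95 and 13.19 in SetD8 arrays. It rose 3.41-fold, by 1.77 ± 0.13 (SE; limma adjusted p = 0.0085; 0.053 with the slide as a block), and the arrays of each group lay close together. At the 75th percentile it was 1.57 ± 0.47 higher (limma adjusted p = 0.951; 0.0138 with the slide as a block; 0.00561 without control 2).

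Prnp, which encodes the prion protein, a GPI-anchored surface protein, read 11.87, 11.73 and 11.69 against 12.73, 12.48 and 12.66. It rose by 0.86 ± 0.12 (SE; limma adjusted p = 0.0324; 0.132 with the slide as a block). The ABC transporter gene Abcc4, which had the next smallest p in this list, was 0.58 ± 0.12 higher and was not called (limma adjusted p = 0.0791). The call of Art4 was lost, with adjusted p from 0.0612 to 0.0823, when control 1 or any 1 of the SetD8 arrays was left out, and that of Prnp was lost without any 1 array, with adjusted p from 0.0516 to 0.162. Cd55, named here after its values were seen, carries the Cromer antigens as a complement regulator and was 1.34 ± 0.32 higher without overlap between the groups (limma adjusted p = 0.104). It was 1.85 ± 0.51 higher on the first scale (limma adjusted p = 0.951), and there it passed with the slide as a block (2.03; adjusted p = 0.00346) and without control 2 (1.84; adjusted p = 0.00839).

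Among 16 genes of the membrane skeleton and of band 3 partners, all tested, 1 rose and none fell after normexp and quantile normalization, against 1.46% and 0.236% of all genes. At the 75th percentile 0 of 16 were called by limma, and 2 had an unadjusted p under 0.05, against 3.08% of all genes. The median difference was 0.076 on the second scale and -0.038 on the first. Mpp1, which encodes p55, the scaffold that binds glycophorin C, read 12.61, 12.63 and 12.46 in controls and 13.60, 13.53 and 13.37 in SetD8 arrays. It rose 1.91-fold, by 0.93 ± 0.12 (SE; limma adjusted p = 0.0242; 0.0784 with the slide as a block), a direction opposite to that of Gypc. Its call was lost without control 1 or any 1 SetD8 array, with adjusted p from 0.0875 to 0.159, with the mean of its probes (0.64; adjusted p = 0.0739) and with probes tested alone (adjusted p = 0.0542). The first scale gave a difference of 0.75 ± 0.47 (limma adjusted p = 0.951).

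The genes with the next smallest p in that list, Slc2a1 and Ank1, were lower and were not called on either scale. Among probes detected on all arrays, Slc2a1 was called lower at the 75th percentile (limma adjusted p = 0.0400). With that filter after normexp and quantile normalization, Slc2a1 and Ank1 were both called lower (limma adjusted p = 0.0268 and 0.0395). Slc2a1, which encodes the glucose transporter GLUT1, read 13.10, 12.86 and 13.48 against 11.68, 11.64 and 12.27, a difference of -1.28 ± 0.23 (SE; limma adjusted p = 0.0573). On this scale the highest array of each group was the one on the slide of control 3, as in Slc4a1, whereas at the 75th percentile control 3 was the lowest control for both genes. Ank1, which encodes the ankyrin that holds band 3 to spectrin, differed by -0.48 ± 0.10 (SE; limma adjusted p = 0.0807), with 11.01, 11.07 and 11.03 in controls and 10.50, 10.55 and 10.61 in SetD8 arrays.

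Of 10 transcription factors and cofactors of erythroid genes, 0 were called on either scale by limma. Of all genes 0% were called on the first scale, and 1.46% higher and 0.236% lower on the second. None of the 10 had an unadjusted p under 0.05, against 3.08% of all genes on the first scale and 15.8% on the second. In a list this short, 0 calls are near those shares. On the second scale 2 were higher and 1 lower without overlap, against 13.7% and 9.93% of all genes. Their median difference was 0.047 after normexp and quantile normalization and -0.12 at the 75th percentile. The 3 with the smallest p were Nfe2 (0.22 ± 0.11; limma adjusted p = 0.417), Lyl1 (0.29 ± 0.19; 0.554) and Lmo2 (-0.15 ± 0.11; 0.583), all on the second scale. These differences were smaller than those of Slc4a1 or Rhag.

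**Figure D4:**
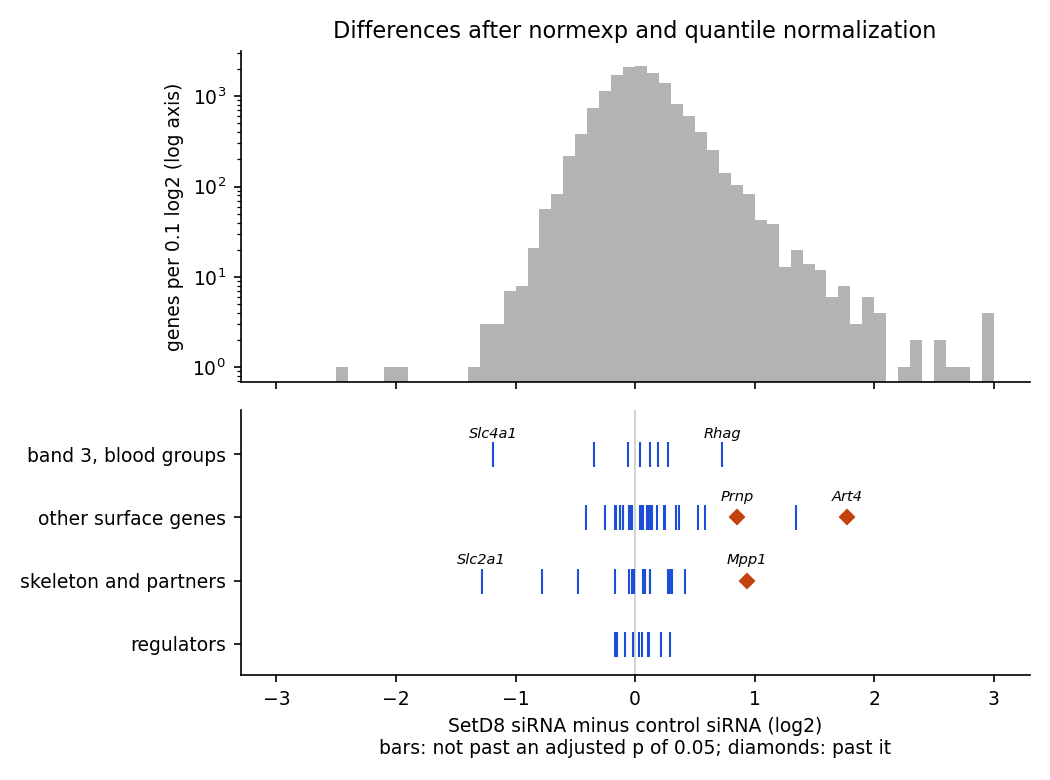
Top, the differences of all 14435 tested genes after normexp and quantile normalization, as gene counts per 0.1 log2 on a log axis. Below, each gene of 4 groups as a bar at its difference, with diamonds for those past an adjusted p of 0.05: Prnp, Art4 and Mpp1. Slc4a1 and Slc2a1 lie at the left edge of the distribution, and none of the 8 band 3 and blood group genes is past the threshold.

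The label of the cells was checked against marker genes. The 5 erythroid markers read here (Hba-a1, Alas2, Tfrc, Epor and Tspo2) were well above background on all 6 arrays. Of them 1 rose after normexp and quantile normalization (Tspo2, 0.99; limma adjusted p = 0.0242), and another was lower without overlap but was not called. Their summed linear signal was 360908 to 367209 in controls and 363688 to 368995 in SetD8 arrays after normexp and quantile normalization. That method gives every array the same set of values, so a sum of very bright genes is held nearly constant. The narrow range is therefore no measure of erythroid content. As multiples of the 75th percentile the sums were 1522 to 3439 in controls and 1765 to 2434 in SetD8 arrays. The ranges overlapped on both scales. Markers of other cells were also read: 4 of 7 megakaryocyte, 4 of 6 granulocyte and macrophage, 1 of 5 mast cell, 2 of 3 lymphoid and 2 of 5 stromal and endothelial markers were well above background on all arrays, while Ppbp was so on none. On the second scale 1 megakaryocyte marker (Gp1ba, 0.79; limma adjusted p = 0.0471) and 1 macrophage marker (Cd68, 0.73; limma adjusted p = 0.0342) rose, and no marker was called at the 75th percentile.

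The summed levels of those lists depended on the scale. After normexp and quantile normalization the granulocyte and macrophage markers summed to 4252 to 4330 in controls and 4651 to 6346 in SetD8 arrays, without overlap. As multiples of the 75th percentile they summed to 15.9 to 30.8 and 21.2 to 29.1, which overlapped. The lymphoid markers did the reverse, with 7.24 to 10.8 in controls and 11.3 to 18.0 in SetD8 arrays at the 75th percentile and overlapping sums of 1139 to 2974 and 2421 to 3718 on the second scale. The sums of the megakaryocyte, mast cell, and stromal and endothelial lists overlapped between the groups on both scales, with 8162 to 18460 in controls and 12490 to 26645 in SetD8 arrays for megakaryocyte markers on the second. The part of these signals in the differences of Slc4a1 and Rhag was not tested.

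The gene most like each of the 8 over the 6 arrays was found by the root mean square difference of log2 values after normexp and quantile normalization, each gene centred on its own mean, among 14421 others. For Slc4a1 it was Bnip3, which encodes a mitophagy receptor of the outer mitochondrial membrane, at 0.19, with 14.93, 14.40 and 15.14 in controls and 13.46, 13.48 and 14.40 in SetD8 arrays. Bnip3 too was highest in each group on the slide of control 3 on this scale. Only 2 genes lay within 0.20 of Slc4a1. For Rhag it was 0610009L18Rik at 0.10, with 66 genes within 0.20, for Rhd Ttc23 at 0.087, with 68 genes, and for Xk Sacm1l at 0.097, with 297 genes. The nearest genes of Gypc (Zfp664), Kel (H2ac18), Icam4 (Smo) and Ermap (Sra1) lay at 0.022, 0.035, 0.018 and 0.022, in profiles so flat that 2873 to 4198 genes were within 0.20 of each. These are descriptions over 6 arrays that share the slides and the grouping.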

How the data were processed

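The series holds 1-colour Agilent arrays of Cy3-labelled cRNA from 6 samples, whose titles give the group and the replicate number. The deposited scanner files give spot intensity on a linear scale, and the file headers name Feature Extraction 10.7.3.1 from Agilent and place the probes on mm9. The authors' series matrix holds the same processed signal, with every value within 0.006 of that array's and column medians of 28.8, 7.15 and 76.1 for the controls and 45.3, 23.9 and 30.1 for the SetD8 arrays, so it is linear, with no scaling between arrays. Of the authors' later steps the submitters' processing notes name limma, with no version, and the rest was not given in the sources used here.

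Control spots and the 139 to 176 spots flagged as outliers on each array were left out, and spots of a probe were averaged. Gene names came from a reference table (GRCm38.p6) that named 26855 probes by accession, 3757 by symbol and 625 by synonym and left 24444 without a name. Probes had to be well above background on every array of one group or the other, and the kept probe with the highest mean stood for its gene. No array had a saturated spot, and the number of arrays limits the precision. From the deposited intensity, log2 values relative to the 75th percentile of the array were computed as the main setting, and log2 values after normexp (offset 50) and quantile normalization were set beside them. Differences were tested with limma 3.58.1 in R 4.3.3 (lmFit and eBayes, two-sided), with Benjamini-Hochberg adjustment over all 14435 genes. The script was tested on simulated data. Log2 differences are SetD8 siRNA minus control siRNA, and a fold is its size on the linear scale.

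The genes described and the lists were chosen with earlier results of these data known, and so was the use of both scales. Named genes were Setd8, the 9 genes with every probe, in each of 3 lists the genes called on either scale and the 3 with the smallest p after normexp and quantile normalization, and the gene most like each tested gene. Promoter windows are from RefSeq. The alternatives were other background corrections, scalings, filters, probe summaries and moderation, slide or replicate number as a block, the series matrix, and leaving out each array. The replicate numbers of the titles were not used to pair the arrays in the main setting. Deviations of same-numbered arrays from their group means correlated at 0.23, -0.27 and -0.37 at the 75th percentile. The last is for control 3 and SetD8 3, which shared a slide. As the arrays were of uneven quality, such correlations cannot tell whether the numbers pair cultures. Some marker genes of the fixed lists are not reported here.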

Additional observations from a re-analysis of the deposited data

How the results depend on the processing

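Slc4a1 and Gypc stayed lower and Rhag higher in all 30 alternatives, and 0 of the 8 band 3 and blood group genes were called by limma in any of them. Of all genes, 0% were called at the 75th percentile, and 1.46% higher and 0.236% lower after normexp and quantile normalization. In a set of 8 genes, 0 calls are near those shares. Slc4a1, Gypc and Rhag each have a single probe, so several alternatives repeat the same difference. For Slc4a1 and Rhag, leaving out an array could not change the sign, as their groups did not overlap. Counts over all genes moved: limma called 0 genes at the 75th percentile, but 211 higher and 34 lower after normexp and quantile normalization, 36 and 1 after normexp with the 75th percentile, 43 and 2 after quantile normalization alone, 121 and 10 with the 75th percentile of detected probes, 96 and 9 among probes detected on all arrays, 118 and 12 with the slide as a block, and 18 higher with trend and robust moderation. On top of normexp and quantile normalization the counts were 13 and 1 with the slide as a block, 439 and 158 among probes detected on all arrays, 165 and 25 with the mean of probes, and 94 and 6 for probes tested alone. Leaving out 1 array gave 0 to 174 higher and 0 to 33 lower: without control 2 the 75th percentile called 132 and 9, and normexp and quantile normalization called 0 genes without control 1, SetD8 1 or SetD8 2, and 5 without SetD8 3. With the replicate block 0 genes were called on either scale. Overlap between groups is read from the array values alone, so a block cannot change its count. The pairing by number comes from the titles, and it partly follows the slides. Control 1 and SetD8 1 shared a slide, as did control 3 and SetD8 3.

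The number of the 8 genes without overlap was 2 at the 75th percentile and 0 with median scaling. It was 4 after quantile normalization and with the 75th percentile of detected probes. In the normexp and quantile settings it was 4, or 3 with the mean of probes, and those with a block repeat the same values. Leaving out 1 array gave 2 to 6, where smaller groups separate more easily. Of all genes, 7.55% did not overlap at the 75th percentile and 23.6% after normexp and quantile normalization. The share was not computed for the other settings, so their counts are not shown to be particular to these genes. Median scaling moved the median of all genes to -0.45, the 75th percentile of detected probes to 0.17. Calls among other surface genes were 2 or 1 where any were made (3 among probes detected on all arrays after normexp and quantile normalization), and 0 to 2 without 1 array. Calls among skeleton genes were 0 in 25 of the 30 alternatives and 0 to 1 without 1 array. After normexp and quantile normalization 1 was called (Mpp1, higher). Among probes detected on all arrays 1 was called (Slc2a1, lower). With both of these 3 were called (Mpp1 higher, Slc2a1 and Ank1 lower). The Setd8 decrease passed the threshold at -2.07 after normexp and quantile normalization (also for detected or single probes), -2.24 with normexp and the 75th percentile or with probes detected on all arrays, -2.10 after quantile normalization, -2.11 with detected probes, -1.93 with the slide as a block, -2.04 with both, and -1.60 with the mean of probes; it was -2.74 to -1.84 without 1 array.

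Small differences changed sign. Kel was 0.12 after normexp and quantile normalization (0.14 with the slide block), 0.063 after quantile normalization, 0.015 with detected probes, 0.15 with the slide block, and -0.43 to 0.20 without 1 array. Ermap was 0.19 (0.16 with the slide block, 0.039 with the mean of probes), 0.14, 0.047, 0.15, and -0.35 to 0.24 in the same order. Nfe2 was 0.22 (0.16 with the slide block), 0.19, 0.068, 0.14, and -0.33 to 0.25. Rhd was 0.043 with detected probes, 0.22 with the slide block, 0.036 with normexp, quantile and the slide block, and -0.48 to 0.12 without 1 array. With median scaling Xk was -0.027, Icam4 -0.42, Abcc4 -0.037 and Lyl1 -0.27, and without 1 array Xk was -0.20 to 0.77 and Icam4 -0.23 to 0.40. The cause of these changes was not tested. Slc14a1 was not well above background on any array.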
